A study of Homo sapiens with 6 samples.

Results

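Heat shock proteins and their co-chaperones were taken as every row of the deposited expression table whose gene symbol starts with HSPA, HSPB, HSPH, HSPD, HSPE, HSP90 or DNAJ. This gave 78 of 24580 rows, with 77 different symbols. The rule uses names only and no expression value. The study sequenced RNA of LoVo, a long-established line from a human colorectal adenocarcinoma that is labelled wildtype, and of LoVo-HM, labelled a LoVo subline of high metastatic capacity. Each line had 3 libraries, numbered 1 to 3, and the labels record no treatment of either. How LoVo-HM was obtained, whether it is a single clone and whether libraries of 1 line came from separate cultures is not stated in the labels. The p-values below therefore measure the spread between these libraries, which may be technical.

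Chaperones help other proteins to fold, and cells keep separate sets of them in the cytosol, the endoplasmic reticulum (ER) and the mitochondria. HSP70 proteins bind unfolded stretches in a cycle driven by ATP. J proteins, whose symbols start with DNAJ, deliver clients and start ATP hydrolysis, and exchange factors such as the HSP110 proteins release ADP again. HSP90 proteins act later on partly folded clients such as kinases and receptors, small heat shock proteins hold unfolded proteins without ATP, and the HSP60 and HSP10 chaperonin encloses proteins inside mitochondria. Heat shock factors raise the cytosolic set and some mitochondrial chaperones when proteins unfold in the cytosol, and the unfolded protein response raises the ER set.

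Levels are in FPKM, a count of fragments divided by transcript length and by the library's mapped fragments, and each library summed to between 424624 and 439082 FPKM. Read depth is unknown, so no counting intervals are given. Group levels are given as mean ± SD (n = 3 libraries). A log2 difference is the LoVo-HM mean less the LoVo mean of log2(FPKM + 1), given with its SE, and this scale understates changes of low genes. The test was limma's, with p-values adjusted by Benjamini and Hochberg's method across the 14487 genes whose mean over all 6 libraries reached 0.5 FPKM. A gene is said to have risen or fallen where this adjusted p was under 0.05. Transcripts of 13 mitochondrially encoded genes took 20.9 to 21.8% of the FPKM of LoVo libraries and 17.5 to 18.6% in LoVo-HM. Among 10 markers of colorectal epithelium 5 rose, 2 fell and 3 were too low to test. All 7 tested markers thus passed, beside 44.9% of all tested genes. The rises were in KRT8, KRT18, KRT19, KRT20 and CDX2. CDH1 fell from 48.0 ± 1.38 FPKM in LoVo to 7.91 ± 0.359 in LoVo-HM, and EPCAM from 128 ± 1.99 to 51.7 ± 2.60. KRT8 was at 1188 to 1216 FPKM in LoVo libraries, whereas VIL1 was listed at 0 in every library. Among markers of other cells, 0 of 6 immune and 0 of 5 endothelial genes and 1 of 6 fibroblast genes were high enough to test, the last being COL1A1 at 5.62 ± 0.801 FPKM in LoVo and 4.75 ± 0.436 in LoVo-HM. In bulk RNA, fewer cells that express a gene and less of its RNA per cell cannot be told apart.

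The comparison of LoVo-HM with LoVo asked how the chaperone genes of each compartment differ between the lines. Cytosolic HSP90 genes, the constitutive HSP70 gene HSPA8 and the mitochondrial HSP60 and HSP10 genes rose in LoVo-HM, while the main ER chaperones HSPA5 and HSP90B1 fell. HSPB3, a small heat shock protein known from muscle, fell 24.2-fold. Of 64 tested rows 19 rose, 14 fell and 31 did not pass the test. That is 51.6% past the threshold, beside 44.9% of all tested genes. Higher calls made up 29.7% of the tested rows and 21.8% of all tested genes, and lower calls 21.9% and 23.1%. The median log2 difference was -0.02 for the tested rows and 0.003 over all tested genes. The summed FPKM of the 78 rows was 5063 ± 18.7 in LoVo and 5598 ± 142 in LoVo-HM, or 1.15 to 1.17% of all FPKM in LoVo libraries and 1.29 to 1.35% in LoVo-HM libraries, without overlap. Changes of at least 2-fold on the log2 scale were rare. Among the tested rows 0 rose and 1 fell by that much, against 2.37% and 4.18% of all tested genes.

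Sorted by compartment, the counts differed. In the cytosol and nucleus 11 of 32 tested rows rose, 6 fell and 15 did not pass, with a median of 0.09. In the ER 2 of 13 rose, 7 fell and 4 did not pass, with a median of -0.21. In mitochondria 4 of 8 rose, 0 fell and 4 did not pass, with a median of 0.11. Past the threshold were 53.1, 69.2 and 50% of the tested rows of these compartments in turn, beside 44.9% of all tested genes. Rises made up 34.4, 15.4 and 50%, beside 21.8%. Falls made up 18.8, 53.8 and 0%, beside 23.1%. In all 3 compartments most of the summed FPKM came from a few genes, and the sums followed them. ER chaperone transcripts summed to 618, 628 and 646 FPKM in LoVo and to 462, 445 and 498 in LoVo-HM. All LoVo-HM libraries lay below all LoVo libraries, and the ratio of the means (LoVo-HM over LoVo) was 0.742. Mitochondrial chaperone transcripts summed to 1056, 1069 and 1111 FPKM in LoVo and to 1294, 1238.5 and 1332 in LoVo-HM, a ratio of 1.19. The cytosolic sum was 3263 ± 41.9 FPKM in LoVo and 3739 ± 74.0 in LoVo-HM, a ratio of 1.15. The mitochondrial sum divided by the ER sum was 1.71 ± 0.00861 in LoVo and 2.75 ± 0.0681 in LoVo-HM. Sums over these genes were not tested.

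**Figure D1:**
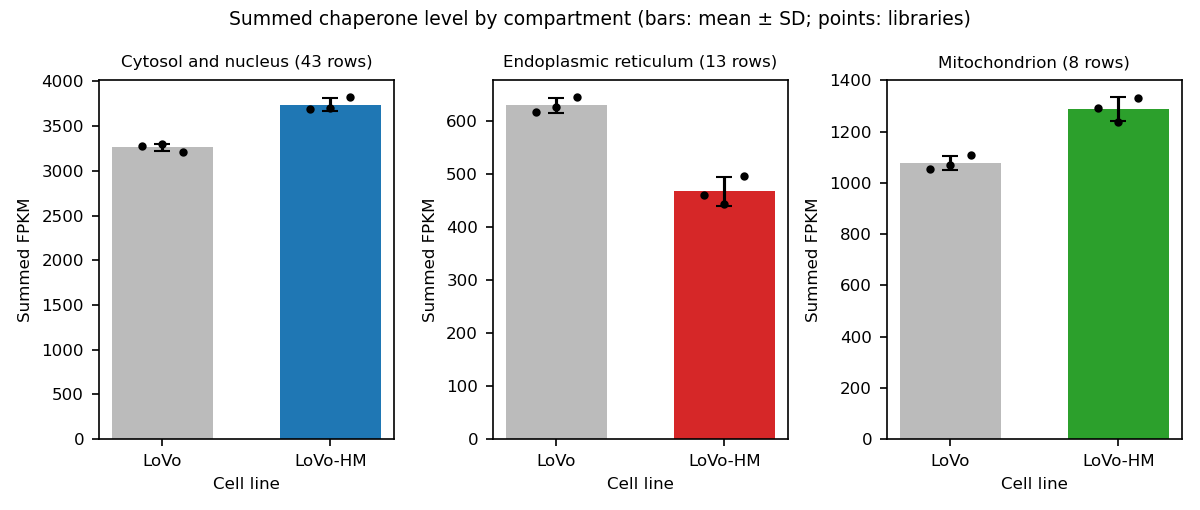
Summed FPKM of the chaperone genes of each compartment (vertical axes, each starting at 0) in LoVo and LoVo-HM. Bars are means ± SD of 3 libraries and points are libraries. The ER sum is lower in all 3 LoVo-HM libraries than in any LoVo library, and the cytosolic and mitochondrial sums are higher in all 3.

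**Figure D2:**
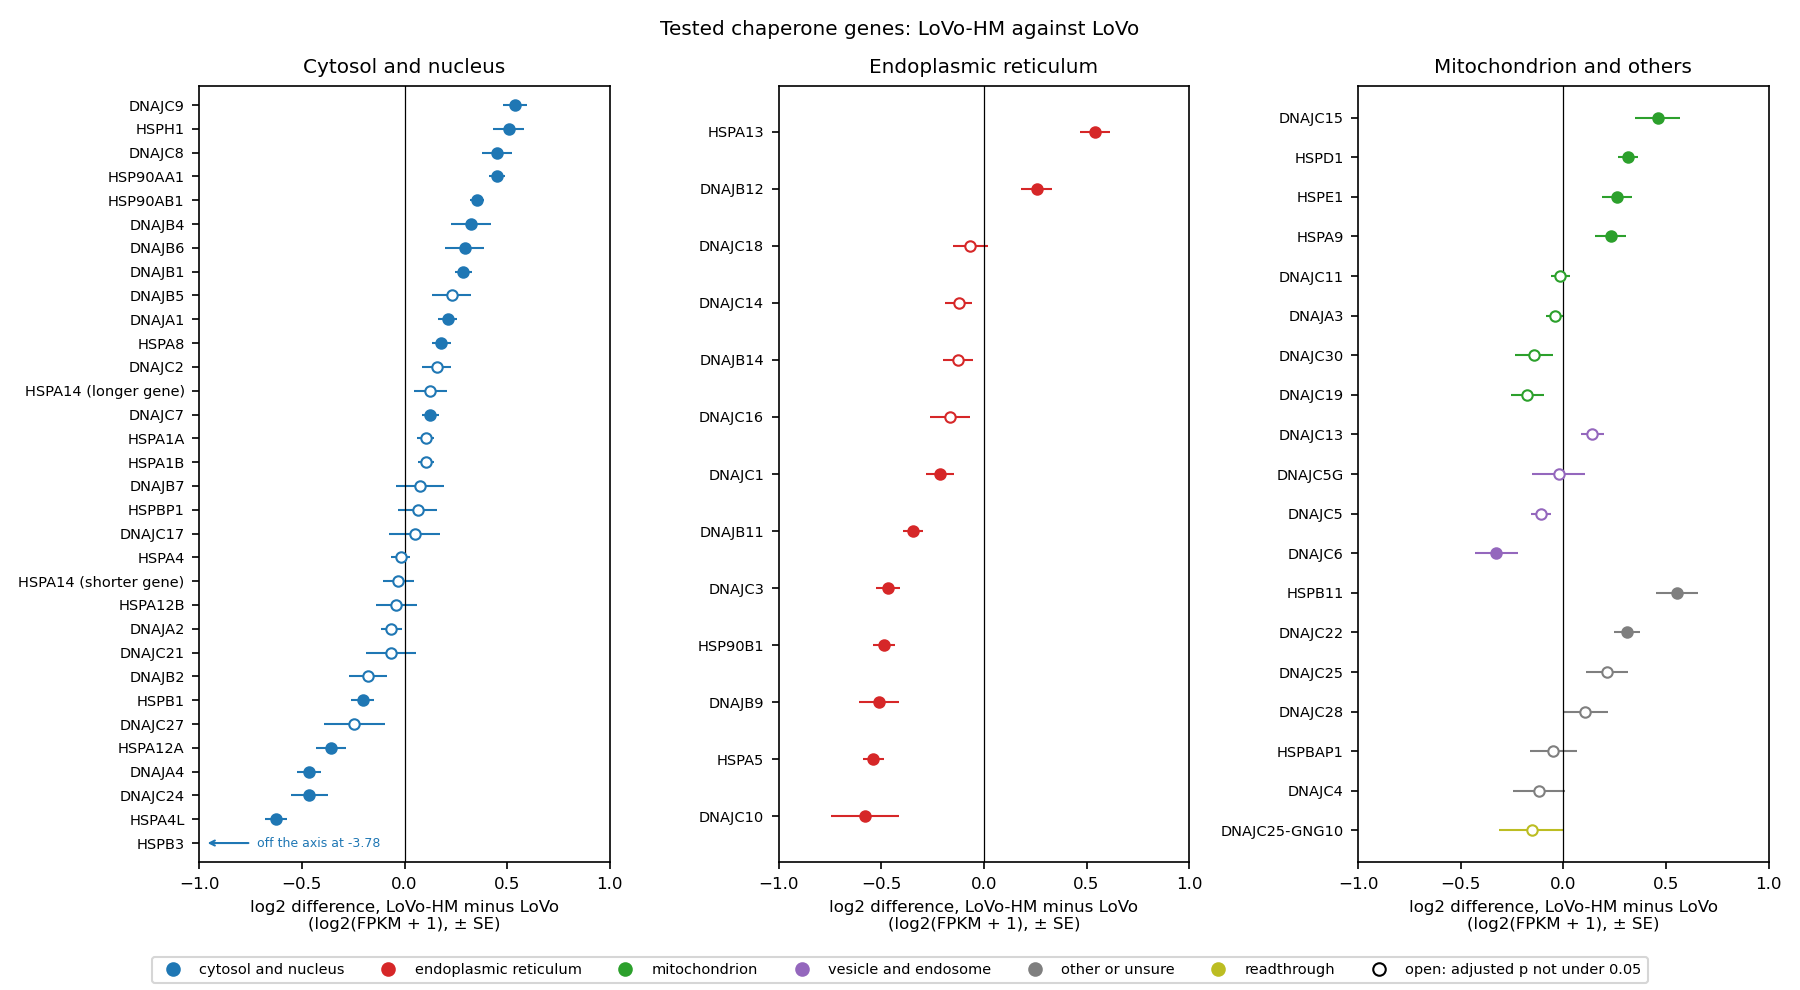
Log2 difference (LoVo-HM minus LoVo, log2(FPKM + 1)) ± SE of each tested chaperone row, by compartment. Filled points passed an adjusted p of 0.05 and open points did not, and HSPB3 lies off the axis at -3.78. Most ER genes lie left of 0. The most abundant cytosolic and mitochondrial genes lie right of it, except HSPB1 at -0.20.

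HSP90 genes went opposite ways in the cytosol and the ER. HSP90AA1, the stress-inducible cytosolic HSP90 (ENSG00000080824, chr14:102080738-102139699), stood at 349, 363 and 362 FPKM in LoVo and at 488, 472 and 507 FPKM in LoVo-HM. Every LoVo-HM library was above every LoVo library, and the gene rose 1.37-fold (0.45 ± 0.0393, limma's adjusted p = 3.01e-05). HSP90AB1, the constitutive cytosolic HSP90 (ENSG00000096384, chr6:44246166-44253888), stood at 723, 743 and 734 FPKM in LoVo and at 941, 913 and 958 FPKM in LoVo-HM. It rose 1.28-fold (0.35 ± 0.0342, limma's adjusted p = 5.67e-05), again without overlap between the lines. Together both genes took 0.244 to 0.254% of all FPKM in LoVo and 0.326 to 0.344% in LoVo-HM. HSP90B1, the ER HSP90 also called GRP94 that folds integrins and Toll-like receptors (ENSG00000166598, chr12:103930107-103953645), stood at 292, 300.1 and 304 FPKM in LoVo and at 211, 199 and 229 FPKM in LoVo-HM. This gene fell (-0.49 ± 0.0536, limma's adjusted p = 0.000122), and its lines did not overlap either.

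Of 7 tested cytosolic HSP70 rows 1 rose, 1 fell and 5 did not pass. That is 28.6% past the threshold, beside 44.9% of all tested genes. HSPA8, the constitutive HSC70 that also uncoats clathrin vesicles, was the most abundant chaperone transcript, at 967, 964 and 936 FPKM in LoVo and 1025, 1082 and 1145 in LoVo-HM. It rose 1.13-fold (0.18 ± 0.0448, limma's adjusted p = 0.0111). The call was lost with quantile normalization (0.02, adjusted p = 0.701) and without an intensity trend in the variance (adjusted p = 0.0547). The heat-inducible HSP70 genes HSPA1A and HSPA1B lie side by side on chromosome 6 (chr6:31815464-31817946 and chr6:31827735-31830255) and are near-identical copies, so the split of reads between them is uncertain. Their sum was 165, 160.1 and 158 FPKM in LoVo and 175, 170 and 173 in LoVo-HM. The lines did not overlap, but the differences of 0.10 ± 0.0416 for HSPA1A and 0.10 ± 0.0387 for HSPA1B did not pass the test (limma's adjusted p = 0.0721 and 0.0597). Both passed after rescaling libraries to the same total (adjusted p = 0.0232 and 0.0166), with quantile normalization (0.0448 and 0.0403) and without a filter on low values (0.0415 and 0.0421).

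The row that fell was HSPA12A, a distant relative of HSP70, which went from 6.99 ± 0.196 to 5.24 ± 0.411 FPKM (-0.36 ± 0.0752, limma's adjusted p = 0.00481). HSPA12B was at 0.981 ± 0.0437 and 0.926 ± 0.110 FPKM. HSPA14, a ribosome-associated HSP70, has 2 overlapping gene models on chromosome 10 that share reads, and their sum was 31.6 ± 0.936 FPKM in LoVo and 33.2 ± 0.835 in LoVo-HM. The testis-linked HSPA1L and HSPA2 and the strictly heat-inducible HSPA6 stayed at or below 0.458 FPKM in every library and were not tested.

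**Figure D3:**
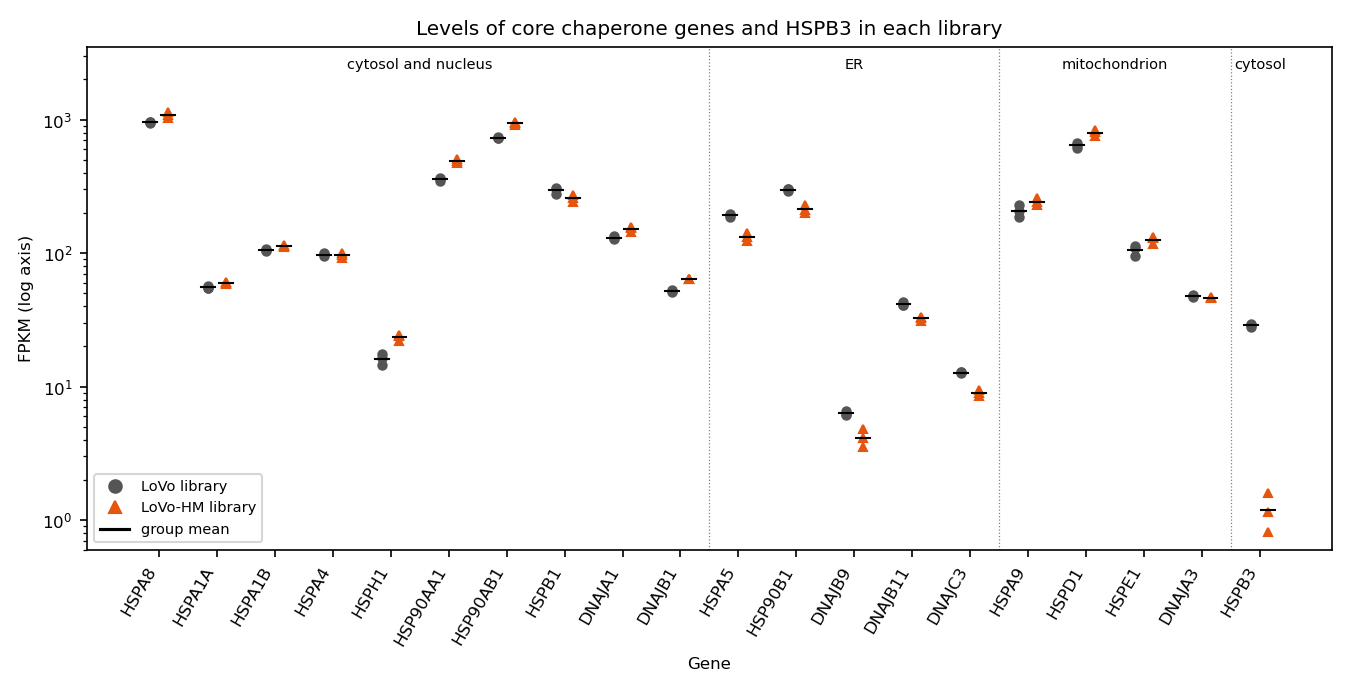
FPKM (log axis) of 19 core chaperone genes and HSPB3 in each library, with LoVo libraries as circles, LoVo-HM libraries as triangles and group means as lines. HSP90AA1, HSP90AB1, HSPH1 and HSPD1 sit higher in LoVo-HM, HSPA5, HSP90B1, DNAJB9, DNAJB11 and DNAJC3 sit lower, and HSPB3 drops from 28.7 to 1.19 FPKM.

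The HSP110 genes, whose products exchange the nucleotide of HSP70, split. HSPH1, the heat-inducible HSP105, stood at 14.6, 17.7 and 16.5 FPKM in LoVo and at 24.0, 22.1 and 24.3 FPKM in LoVo-HM, a rise of 1.44-fold (0.51 ± 0.0767, limma's adjusted p = 0.000806). HSPA4L went the other way, from 16.0, 16.5 and 17.0 FPKM to 10.5, 10.3 and 10.3 FPKM (-0.63 ± 0.0552, limma's adjusted p = 3.21e-05). Neither gene overlapped between the lines. HSPA4, the most abundant of the HSP110 genes, did not pass, at 97.7 ± 2.48 FPKM in LoVo and 96.4 ± 4.58 in LoVo-HM (limma's adjusted p = 0.766). The HSP70 exchange factor HSPBP1 did not pass either, at 49.9 ± 2.97 and 52.5 ± 7.02 FPKM.

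Of the 7 small heat shock protein genes, HSPB1 and HSPB3 were tested and both fell. Falls made up 23.1% of all tested genes. HSPB3 (ENSG00000169271, chr5:54455601-54456384) stood at 27.9, 29.4 and 28.9 FPKM in LoVo and at 1.60, 1.15 and 0.814 FPKM in LoVo-HM. The highest LoVo-HM library was far below the lowest LoVo library, and the difference was the largest of the tested chaperone rows (-3.78 ± 0.121, limma's adjusted p = 4.7e-08). HSPB1, the abundant HSP27 that binds unfolded proteins and actin, stood at 306, 303 and 279 FPKM in LoVo and at 259, 272 and 241 FPKM in LoVo-HM (-0.20 ± 0.0557, limma's adjusted p = 0.0171). The HSPB1 call was lost without LoVo replicate 1 (adjusted p = 0.0587), without LoVo replicate 2 (0.0640) and without an intensity trend (0.0556). HSPB2, HSPB6, HSPB7 and HSPB9 stayed at or below 0.538 FPKM and HSPB8 was listed at 0 throughout. Of the related genes CRYAA, CRYAB and ODF1 none was high enough to test, with CRYAB at 0.206 ± 0.145 FPKM in LoVo and listed at 0 in LoVo-HM.

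**Figure D4:**
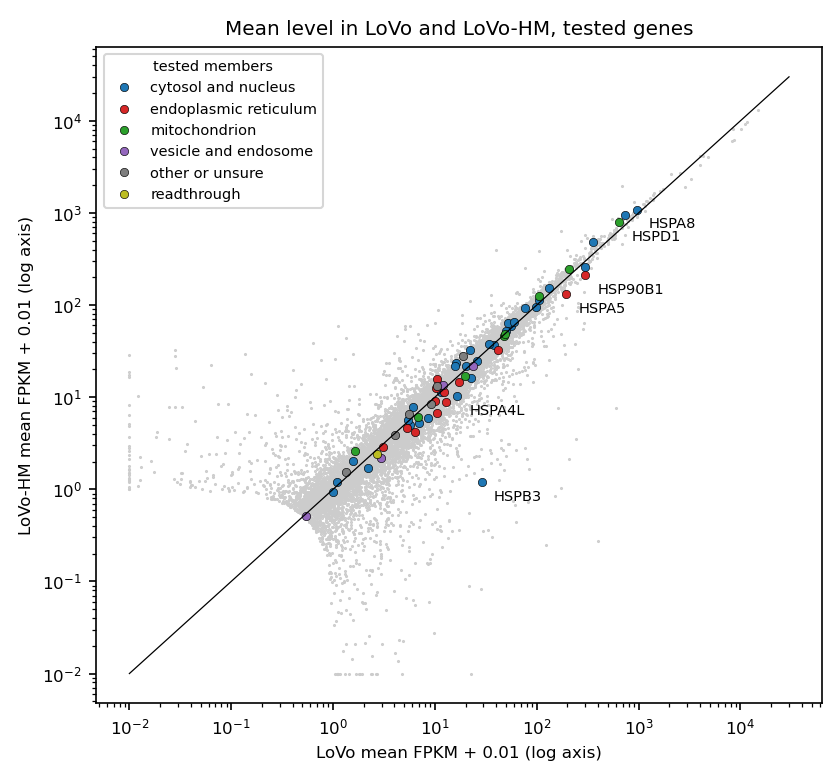
Mean FPKM + 0.01 in LoVo (horizontal, log axis) and LoVo-HM (vertical, log axis) for the tested genes, with tested chaperone rows coloured by compartment, all other tested genes in grey and the line of equality. The chaperone rows stay near the line except HSPB3, and the ER genes HSPA5 and HSP90B1 lie below it.

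Cytosolic and nuclear J proteins rose in some members and fell in others, and their total relative to HSP70 differed by less than the spread between libraries. It was 44.0 ± 0.574 per 100 FPKM of cytosolic HSP70 in LoVo and 44.3 ± 1.80 in LoVo-HM. DNAJB1, the main heat-inducible partner of HSP70, stood at 53.4, 50.8 and 52.3 FPKM in LoVo and at 63.9, 63.7 and 63.7 FPKM in LoVo-HM (0.29 ± 0.0416, limma's adjusted p = 0.000661). DNAJA1, the most abundant J protein transcript, rose from 131 ± 3.79 to 152 ± 7.15 FPKM (0.21 ± 0.0469, limma's adjusted p = 0.00662). In contrast DNAJA4 fell from 22.7 ± 0.878 to 16.2 ± 0.749 FPKM (-0.46 ± 0.0583, limma's adjusted p = 0.000277) and DNAJA2 did not pass, at 38.2 ± 0.902 and 36.5 ± 1.79 FPKM.

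Among specialised J proteins, DNAJC9, a nuclear histone chaperone, rose most, from 20.5, 22.7 and 22.4 FPKM to 33.8, 30.9 and 32.0 FPKM (0.54 ± 0.0598, limma's adjusted p = 0.00013). DNAJC8, a splicing-associated protein, rose from 15.4, 14.5 and 17.5 FPKM to 21.3, 21.9 and 22.5 FPKM (0.45 ± 0.0715). DNAJC24, which takes part in the synthesis of diphthamide on elongation factor 2, fell from 8.49 ± 0.689 to 5.88 ± 0.592 FPKM (-0.46 ± 0.0891). DNAJB4 (0.33), DNAJB6 (0.29) and DNAJC7 (0.13) rose by less, and their calls were fragile. DNAJB4 was lost without LoVo replicate 1, LoVo replicate 3, LoVo-HM replicate 2 or LoVo-HM replicate 3 (adjusted p = 0.0501 to 0.0793) and without a filter on low values (0.0533). DNAJB6 was lost without LoVo replicate 2, LoVo replicate 3, LoVo-HM replicate 1 or LoVo-HM replicate 2 (adjusted p = 0.0850 to 0.103), without that filter (0.0846) and without an intensity trend (0.0660). DNAJC7 was lost without any 1 of the 6 libraries (adjusted p = 0.0536 to 0.110), without an intensity trend (0.103), without mitochondrially encoded genes (0.0917) and with the replicate number as a block (0.0609). The other 7 tested members, DNAJB2, DNAJB5, DNAJB7, DNAJC2, DNAJC17, DNAJC21 and DNAJC27, did not pass. DNAJB8 and DNAJB13 were too low to test, and DNAJC12, a co-chaperone of aromatic amino acid hydroxylases, was at 0.584, 0.327 and 0.821 FPKM in LoVo and listed at 0 in all 3 LoVo-HM libraries.

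Of the 13 ER chaperones and J proteins 7 fell, 2 rose and 4 did not pass. HSPA5, the ER HSP70 also called BiP that binds nascent secretory proteins and holds the stress sensors inactive (ENSG00000044574, chr9:125234853-125241330), stood at 186, 193 and 198 FPKM in LoVo and at 132, 124 and 140.4 FPKM in LoVo-HM. Its highest LoVo-HM library lay well below its lowest LoVo library (-0.54 ± 0.0516, limma's adjusted p = 5.28e-05). Of the J proteins of the ER lumen, DNAJB11, also called ERdj3, stood at 42.8, 40.9 and 40.7 FPKM in LoVo and at 31.1, 33.2 and 32.8 FPKM in LoVo-HM (-0.35 ± 0.049, limma's adjusted p = 0.00055). DNAJC3, also known as an inhibitor of the kinases PERK and PKR, stood at 12.6, 12.9 and 12.8 FPKM in LoVo and at 9.40, 8.57 and 8.91 FPKM in LoVo-HM (-0.47 ± 0.0603, limma's adjusted p = 0.000323). DNAJB9, which directs BiP to the sensor IRE1, stood at 6.15, 6.20 and 6.54 FPKM in LoVo and at 3.52, 4.09 and 4.82 FPKM in LoVo-HM (-0.51 ± 0.0993, limma's adjusted p = 0.00321). None of these 4 genes overlapped between the lines.

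DNAJC10, a disulfide reductase of the ER, fell with a wider spread, from 8.33, 9.67 and 13.6 FPKM to 5.75, 6.23 and 7.94 FPKM (-0.58 ± 0.167, limma's adjusted p = 0.0211). Its call was lost without LoVo-HM replicate 1 (adjusted p = 0.0730), without LoVo-HM replicate 2 (0.0637) and without a filter on low values (0.0633). DNAJC1, a membrane J protein of the ER, fell from 17.0 ± 0.947 to 14.5 ± 0.840 FPKM (limma's adjusted p = 0.0284), which was lost without LoVo replicate 1 (adjusted p = 0.0961), LoVo replicate 3 (0.0550) or LoVo-HM replicate 2 (0.0835). A pair of ER genes rose. HSPA13, an HSP70-like ATPase of microsomes also called STCH, rose from 10.4 ± 0.597 FPKM to 15.2, 14.7 and 16.9 FPKM in the LoVo-HM libraries (0.54 ± 0.0722, limma's adjusted p = 0.0004), without overlap. DNAJB12, an ER membrane J protein that faces the cytosol, rose from 10.3 ± 0.515 to 12.5 ± 1.07 FPKM (limma's adjusted p = 0.0226). It lost its call without LoVo replicate 1 (adjusted p = 0.0663), LoVo replicate 2 (0.0731) or LoVo-HM replicate 2 (0.0675). The remaining membrane J proteins DNAJB14, DNAJC14, DNAJC16 and DNAJC18 did not pass, with log2 differences of -0.16 to -0.07.

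Genes of ER folding outside the name rule were also mostly lower. Of 20 listed folding factors 0 rose, 13 fell and 7 did not pass, with a median of -0.26. Falls were 65% of these, beside 23.1% of all tested genes. ERO1A, the oxidase that drives disulfide formation, fell from 28.5 ± 1.20 to 17.0 ± 0.619 FPKM (-0.71 ± 0.0559, limma's adjusted p = 1.53e-05). The lectin chaperone CANX fell from 192 ± 0.915 to 125 ± 9.25 FPKM (-0.62 ± 0.054) and the disulfide isomerase PDIA3 from 126 ± 2.21 to 98.5 ± 1.48 FPKM (-0.35 ± 0.038). Of 15 tested ER stress sensors and degradation factors 2 rose, 4 fell and 9 did not pass. Here 40% passed, beside 44.9% of all tested genes. XBP1, a transcription factor of the unfolded protein response, fell from 35.6, 38.8 and 38.3 FPKM to 19.2, 17.5 and 20.1 FPKM (-0.96 ± 0.0646, limma's adjusted p = 5.85e-06). HERPUD1, an ER degradation factor, fell from 18.5 ± 1.38 to 11.6 ± 0.905 FPKM, and PPP1R15A, which helps to remove phosphate from eIF2alpha, rose from 9.04 ± 0.342 to 13.6 ± 0.324 FPKM. In a list of 19 genes known to be induced by ER stress, 1 of 18 tested rose, 14 fell and 3 did not pass (median -0.43). Falls were 77.8%, beside 23.1% of all tested genes. This list adds no new gene, since 7 are ER chaperones above and the rest are among the folding, stress and degradation factors just counted. The gene that rose was HSPA13. The list was chosen with earlier results of these data known, and it leaves out some of the stress factors counted above. Of those left out, PPP1R15A rose, while DDIT3, TRIB3 and ATF4 did not pass (limma's adjusted p = 0.56, 0.075 and 0.318).

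Promoters were searched for response elements of ER stress and heat shock. The ER stress element, known as a site of ATF6 with NF-Y, was searched on both strands as CCAAT and CCACG with 9 bases of any kind between them, and its shorter form as ATTGG and CCACG with 1 base between. The heat shock element, known as a site of HSF1, was searched on both strands as GAA, TTC and GAA with 2 bases between neighbours. The windows were the 250 bases before each start in RefSeq's promoters (GRCh38.p14), and 68 of the 77 symbols had 89 such windows. The ER stress element was found in 2 of the 89 windows (2.25%) and in 26 of 35116 windows of all genes (0.074%), and the shorter form in 0 and 18. The 2 genes were HSPA5 and HSP90B1, of 12 ER genes with a window, and both fell. Of all tested ER rows 53.8% fell, and the other ER genes with a window held no match. Among the 20 ER folding factors outside the rule, 18 had 24 windows, of which 6 (25%) held the element. The window of HSPA5 and the sites of HSP90B1 are shown because these are the most abundant ER genes. Capitals mark the fixed bases of the element, which starts 66 bases before the HSPA5 start and 194 and 89 bases before the HSP90B1 start, the last on the opposite strand.
HSPA5, chr9:125241344-125241593, minus strand: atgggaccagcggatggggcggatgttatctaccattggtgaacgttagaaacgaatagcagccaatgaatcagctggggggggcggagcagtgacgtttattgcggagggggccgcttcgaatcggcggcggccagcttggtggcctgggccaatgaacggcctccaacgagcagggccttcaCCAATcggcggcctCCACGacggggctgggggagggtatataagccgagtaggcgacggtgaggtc
HSP90B1, chr12:103930211-103930240, plus strand: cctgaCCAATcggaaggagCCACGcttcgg
HSP90B1, chr12:103930316-103930345, plus strand: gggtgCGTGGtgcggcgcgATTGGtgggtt

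The heat shock element was found in 6 of the 89 windows (6.74%) and in 155 of the 35116 windows of all genes (0.441%). They belong to 5 of 38 cytosolic and nuclear genes with a window, 1 of 8 mitochondrial and 0 of 12 ER genes, so most windows of each compartment held no match. The 6 genes were HSPA6, which was too low to test, and HSPA8, HSP90AA1, HSP90AB1, HSPD1 and DNAJB6, which rose. HSPA1A, HSPA1B, HSPH1 and DNAJB1 had no match of these letters in the window. A match describes the sequence only, and binding was not measured. Sites of the 4 most abundant genes that rose are shown with the fixed bases of the element in capitals. The matches in HSPD1 overlap each other, and the sites shown for all 4 genes, like those of HSP90B1, lie inside gene models that begin further upstream.
HSP90AB1, chr6:44247743-44247862, plus strand: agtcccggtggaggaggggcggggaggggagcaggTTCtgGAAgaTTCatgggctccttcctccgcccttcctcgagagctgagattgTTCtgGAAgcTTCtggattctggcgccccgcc
HSP90AA1, chr14:102087111-102087140, minus strand: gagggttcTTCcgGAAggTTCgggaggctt
HSPA8, chr11:123062345-123062374, minus strand: gcgagcttGAAagTTCcaGAAcgctgcggt
HSPA8, chr11:123062170-123062199, minus strand: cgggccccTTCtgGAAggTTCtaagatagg
HSPD1, chr2:197500061-197500090, minus strand: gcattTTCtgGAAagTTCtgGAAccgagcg

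The mitochondrial chaperonin rose. HSPD1, the HSP60 subunit (ENSG00000144381, chr2:197486581-197516737), stood at 614, 644 and 665 FPKM in LoVo and at 802, 756 and 836 FPKM in LoVo-HM (0.32 ± 0.0478, limma's adjusted p = 0.000818). HSPE1, the HSP10 lid of the chaperonin, is read in the opposite direction from the same region (chr2:197499994-197503457) and stood at 108, 113 and 95.0 FPKM in LoVo and at 129, 133 and 117 FPKM in LoVo-HM (0.26 ± 0.0727, limma's adjusted p = 0.0184). In both genes every LoVo-HM library was above every LoVo library. Their models overlap, and since the strand setting is not given in the sources used here, reads from the overlap cannot be told apart. The HSPE1 call was lost without LoVo-HM replicate 1 (adjusted p = 0.0616) or LoVo-HM replicate 2 (0.0622).

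HSPA9, the mitochondrial HSP70 also called mortalin, stood at 206, 187 and 231 FPKM in LoVo and at 243, 229 and 258 FPKM in LoVo-HM. The lines overlapped by a narrow margin (0.23 ± 0.0765, limma's adjusted p = 0.0379). Its call was lost without LoVo replicate 1 (adjusted p = 0.0876), LoVo replicate 2 (0.120), LoVo-HM replicate 1 (0.0873) or LoVo-HM replicate 3 (0.111), and without a filter on low values (0.0905), with quantile normalization (0.0796) or without an intensity trend (0.0812). DNAJC15, a J protein of the inner membrane that restrains respiration, rose from 1.61, 1.67 and 1.58 FPKM to 2.12, 2.87 and 2.87 FPKM (0.46 ± 0.108, limma's adjusted p = 0.00864). DNAJA3, the J protein partner of HSPA9 in the matrix, did not pass, at 47.7 ± 0.896 and 46.3 ± 0.639 FPKM, and neither did DNAJC11, DNAJC19 or DNAJC30. Without mitochondrially encoded genes, whose share was lower in LoVo-HM, HSPD1, HSPE1 and DNAJC15 stayed past the threshold and HSPA9 did not (adjusted p = 0.0662).

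Mitochondrial partners outside the rule mostly did not pass. Of 12 listed folding and protease factors 1 rose, 1 fell and 10 did not pass, with a median of -0.01. That is 16.7% past the threshold, beside 44.9% of all tested genes. The protease HTRA2 fell from 11.4 ± 0.801 to 8.16 ± 0.247 FPKM (-0.43 ± 0.0689), the protease YME1L1 rose from 68.2 ± 1.56 to 77.6 ± 3.94 FPKM (0.18 ± 0.049), and the peptidase CLPP was at 67.0 ± 0.553 and 61.9 ± 2.64 FPKM (limma's adjusted p = 0.0726).

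Cytosolic partners were mixed. Of the 8 subunits of the TRiC chaperonin, which folds actin and tubulin, 5 rose, 0 fell and 3 did not pass, with a median of 0.17. That is 62.5% past the threshold, all higher. Each subunit had a mean above 100 FPKM. Of all 506 genes at that level 61.5% passed and 41.7% were higher, with a median of 0.098. The largest changes by p were in CCT2 (0.30 ± 0.0431), TCP1 (0.26 ± 0.059) and CCT5 (0.25 ± 0.0571). Prefoldin, which hands clients to TRiC, had 3 of 6 subunits higher and 3 not past, led by PFDN4 (0.44 ± 0.0797), PFDN1 (0.17 ± 0.0495) and PFDN2 (0.25 ± 0.0822). These rises are 50% of the subunits, beside 21.8% of all tested genes. Of 17 tested HSP90 and HSP70 co-chaperones 4 rose and 4 fell (47.1% past the threshold, beside 44.9% of all tested genes). STIP1, which links HSP70 to HSP90, rose from 139.6 ± 2.64 to 167 ± 3.95 FPKM and FKBP5 from 17.5 ± 0.804 to 23.9 ± 1.49 FPKM, while the phosphatase PPP5C fell from 73.4 ± 1.18 to 63.6 ± 1.03 FPKM. BAG family genes gave 1 rise, BAG2 (0.27 ± 0.0674), and 2 falls, BAG6 (-0.80 ± 0.076) and the heat-inducible BAG3, from 27.1 ± 0.377 to 17.5 ± 1.38 FPKM (-0.60 ± 0.0641, limma's adjusted p = 9.85e-05). With these, 50% of the 6 BAG genes passed, beside 44.9% of all tested genes.

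Of the heat shock factors, HSF1, HSF2 and HSF4 were tested, with the HSF1-binding protein HSBP1, and 0 of these 4 genes passed by limma (HSF2 alone had an unadjusted p under 0.05). Among all tested genes 44.9% passed. HSF1, the main activator of the heat shock genes, was at 17.7 ± 1.27 FPKM in LoVo and 16.4 ± 1.02 in LoVo-HM (-0.10 ± 0.0716, limma's adjusted p = 0.295). HSF2 differed by 0.18 ± 0.0749 and HSF4 by -0.27 ± 0.129. In a list of 20 heat-inducible genes and partners, 15 of which belong to the chaperone rows above, 9 of 18 tested rose, 3 fell and 6 did not pass (median 0.14). Rises were 50% and falls 16.7%, beside 21.8% and 23.1% of all tested genes. The list also holds HSPA8 and HSP90AB1, called constitutive above, and both are among the rises. The 3 that fell were HSPA4L, HSPB1 and BAG3. Immediate early genes, which respond to handling and growth signals, gave 1 rise and 3 falls among 9, with IER3 (-1.76 ± 0.0485) and JUNB (-1.34 ± 0.0811) lower and FOS (0.50 ± 0.111) higher. These genes passed in 44.4%, beside 44.9% of all tested genes. Their part in the chaperone differences was not tested.

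**Figure D5:**
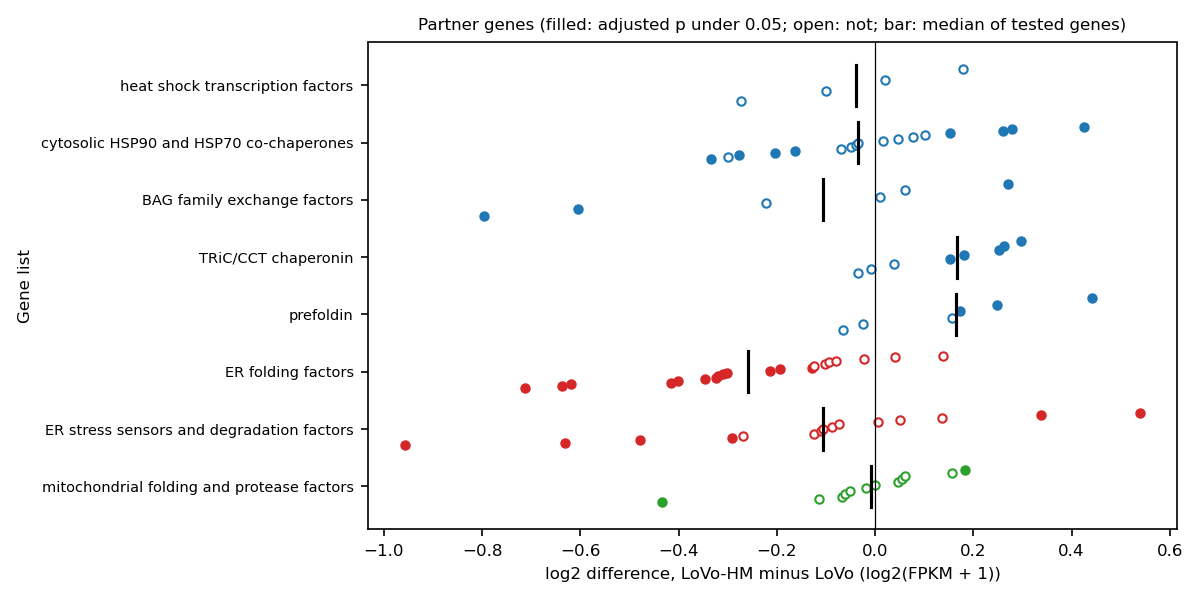
Log2 difference (LoVo-HM minus LoVo, log2(FPKM + 1), horizontal axis) of tested partner genes outside the name rule, by list. Filled points passed an adjusted p of 0.05, open points did not and bars are list medians. ER folding factors centre at -0.26, and TRiC and prefoldin subunits at 0.17.

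The remaining rows belong to vesicles or have other or uncertain roles. DNAJC6, the auxilin that helps HSPA8 to uncoat clathrin vesicles, fell from 2.95 ± 0.139 to 2.16 ± 0.371 FPKM (limma's adjusted p = 0.0343). This was lost with quantile normalization (adjusted p = 0.135), without a filter on low values (0.0666) and without any 1 library other than LoVo-HM replicate 3 (0.0554 to 0.0948). The cysteine string protein gene DNAJC5 (23.6 ± 0.330 and 21.8 ± 0.314 FPKM) and the endosomal DNAJC13 (12.1 ± 0.222 and 13.4 ± 0.278 FPKM) did not pass, although neither overlapped between the lines. DNAJC5G did not pass and DNAJC5B was listed at 0. HSPB11, which despite its symbol encodes a part of the intraflagellar transport complex, stood at 20.4, 20.2 and 16.1 FPKM in LoVo and at 30.4, 24.8 and 29.2 FPKM in LoVo-HM, without overlap (0.55 ± 0.104, limma's adjusted p = 0.0027). DNAJC22 rose from 10.4 ± 0.256 to 13.1 ± 0.776 FPKM (0.31 ± 0.0638, limma's adjusted p = 0.00442), whereas DNAJC4, DNAJC25, DNAJC28 and HSPBAP1 did not pass. The readthrough models share reads with their parent genes and are uncertain. DNAJC25-GNG10 did not pass, HSPB2-C11orf52 was listed at 0, and HSPE1-MOB4 was listed at 0 in all libraries except LoVo-HM replicate 3.

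Most abundant chaperone genes passed the test. Of the 11 with a mean of at least 100 FPKM, 7 rose, 3 fell (HSPA5, HSP90B1 and HSPB1) and HSPA1B did not pass. Among all 506 genes at that level 311 passed (61.5%), 211 of them higher and 100 lower. The 5 most abundant rows, HSPA8, HSP90AB1, HSPD1, HSP90AA1 and HSPB1, held 58.9 ± 0.371% of the chaperone FPKM in LoVo and 63.7 ± 0.351% in LoVo-HM. Values of the lines did not overlap for 38 of the 64 tested rows (59.4%), beside 55% of all tested genes.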

How the data were processed

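RNA was extracted with Trizol and made into libraries with Illumina's TruSeq chemistry, per the labels' protocols, 3 per line. What the authors deposited is a single FPKM table, 1 column for each library. The build named is GRCh38, per the submitters' processing notes. Aligner, counter, annotation and strand setting: not given in the sources used here. No steps worth 1 read were found among 422 genes below 0.3 FPKM (at most 3.08% of ratios in a bin of 0.05 log2 units), so depth is unknown.

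Values were analysed as log2(FPKM + 1) without further scaling. Genes averaging 0.5 FPKM or more across libraries were compared by limma 3.58.1 (R 4.3.3) with an intensity trend, two-sided. Simulated data with known changes were used to check the fit. With 200 changed genes, 16% of changes of 0.25 log2 units were recovered, 70% of 0.5 and 96% of 1. In the real data 6508 genes passed, so recovery there may differ. A row that did not pass can still differ by a small amount. The chaperone rows, compartments, lists and motifs were chosen with earlier results of these data known. Genes named in full were 19 core genes, the 8 largest rises and 8 largest falls past the threshold with at least 1 FPKM in the higher line, and up to 3 genes of each partner list with the smallest p. Compartments are textbook assignments. Positions are from GENCODE 29 (78 of 78 rows matched, all protein-coding). Same-numbered libraries were not paired by the labels. Alternatives were other pseudocounts (0.1 and 0.5), filters, scalings and variance fits, the replicate number as a block, leaving out each library, and, added after seeing the data, leaving out mitochondrially encoded genes.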

Additional observations from a re-analysis of the deposited data

How the results depend on the processing

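All 33 chaperone calls kept their direction under the 17 alternatives tried. Of them 22 stayed past the threshold in every alternative (12 higher and 10 lower, among them HSP90AA1, HSP90AB1, HSPD1, HSPH1, HSPA5, HSP90B1, DNAJB9, DNAJB11, DNAJC3 and HSPB3), and 11 were lost in at least 1. HSPD1 was kept only narrowly, with limma's adjusted p reaching 0.0495 and its difference falling as low as 0.20, from 0.32 in the full data. Of 1082 values of tested rows under alternatives, 1014 kept their side of the threshold, 51 were lost and 17 passed newly. No called row changed sign, but some rows that did not pass did, among them HSPA4 and DNAJC21. The number of chaperone calls ranged from 27 to 36. Leaving out 1 library gave 5 to 7 ER falls, where the full data gave 7. It gave 1 to 2 ER rises, where the full data gave 2, with 1 without LoVo replicate 1, LoVo replicate 2 or LoVo-HM replicate 2. It gave 2 to 5 mitochondrial calls, 2 to 4 of them rises and 0 to 1 falls, the lowest without LoVo-HM replicate 1 and the fall (DNAJC19) without LoVo replicate 3. Fewer libraries entered these fits. With the replicate number as a block 32 chaperone rows passed, 18 higher and 14 lower, DNAJC7 being lost (adjusted p = 0.0609). Same-numbered libraries of the lines did not deviate together (correlations of -0.00701 to 0.0264), so the numbers were not taken to pair them. The ratio of summed levels (LoVo-HM over LoVo) ranged from 0.719 to 0.761 in the ER, 1.17 to 1.22 in mitochondria and 1.13 to 1.17 in the cytosol. These ranges do not cover quantile normalization, under which the log2 difference of HSPA8, the most abundant row, was 0.02 instead of 0.18. Unknown depth limits what can be said of rows below 0.5 FPKM.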
